A study of Homo sapiens with 72 samples.

Results

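The clustered protocadherins were described here as the protein-coding genes of GENCODE release 44 on chromosome 5 whose symbols begin with PCDHA, PCDHB or PCDHG. This gave 53 members of 20033 protein-coding genes, with 15 in the alpha cluster, 16 in the beta cluster and 22 in the gamma cluster. All members lie on the plus strand of hg38, the alpha cluster at chr5:140786136-141012347, the beta cluster at chr5:141051374-141249365 and the gamma cluster at chr5:141330514-141512977. The data were Cut&Tag libraries, in which a tethered transposase cuts the DNA beside an antibody-bound histone mark, for H3K4me3, H3K4me2 and H3K27me3. The cells were the acute lymphocytic leukemia lines REH and NALM6 and the Burkitt's lymphoma line Raji, either untreated or kept overnight with 1 nM Bryostatin, a compound known to act on protein kinase C. Each line, treatment and mark had 3 libraries, 54 in all, and no other allele or agent is named for any group. Libraries made with IgG were not used here.

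The members encode cell adhesion proteins of the cadherin superfamily, best known in neurons, where each cell uses its own combination of them. Each alpha and gamma gene has its own first exon with its own promoter, which is spliced to constant exons shared by the whole cluster, whereas the beta genes have no shared constant exons. The C-type members PCDHAC1, PCDHAC2, PCDHGC3, PCDHGC4 and PCDHGC5 stand at the end of the alpha and gamma clusters and are known for a wider, less random use than the others. H3K4me3 marks promoters in use, H3K4me2 marks promoters and enhancers, and H3K27me3 is the mark laid down by Polycomb repressive complex 2.

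The promoters of the members with the most regular peaks are shown first, since most of them differ in base composition from the other members. The peaks themselves were counted in wider windows and need not cover these bases. Each is the stretch of 250 bases before the RefSeq start (GRCh38.p14, plus strand), 5′ to 3′, with CpG dinucleotides in capitals. PCDHGC3 lies at chr5:141475716-141475965, PCDHGC4 at chr5:141484780-141485029, PCDHAC1 at chr5:140926049-140926298, PCDHAC2 at chr5:140966226-140966475 and PCDHB8 at chr5:141177540-141177789.
PCDHGC3: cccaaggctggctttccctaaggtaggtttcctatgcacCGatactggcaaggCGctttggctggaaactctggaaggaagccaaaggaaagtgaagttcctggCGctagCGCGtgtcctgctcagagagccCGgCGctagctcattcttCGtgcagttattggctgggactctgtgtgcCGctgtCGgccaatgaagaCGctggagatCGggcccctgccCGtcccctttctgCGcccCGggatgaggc
PCDHGC4: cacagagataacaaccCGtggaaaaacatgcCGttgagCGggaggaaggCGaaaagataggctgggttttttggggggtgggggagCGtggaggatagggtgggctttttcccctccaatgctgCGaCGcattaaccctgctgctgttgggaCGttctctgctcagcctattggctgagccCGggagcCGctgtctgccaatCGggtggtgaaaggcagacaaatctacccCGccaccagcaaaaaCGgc
PCDHAC1: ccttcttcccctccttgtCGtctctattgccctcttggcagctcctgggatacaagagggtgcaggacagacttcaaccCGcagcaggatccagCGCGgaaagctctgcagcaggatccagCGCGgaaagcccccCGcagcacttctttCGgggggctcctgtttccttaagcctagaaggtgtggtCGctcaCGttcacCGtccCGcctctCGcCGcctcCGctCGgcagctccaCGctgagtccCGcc
PCDHAC2: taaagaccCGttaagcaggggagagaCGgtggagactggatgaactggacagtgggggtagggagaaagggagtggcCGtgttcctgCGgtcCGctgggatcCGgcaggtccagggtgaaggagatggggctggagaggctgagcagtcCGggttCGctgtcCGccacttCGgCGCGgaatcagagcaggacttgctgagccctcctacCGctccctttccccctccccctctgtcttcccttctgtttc
PCDHB8: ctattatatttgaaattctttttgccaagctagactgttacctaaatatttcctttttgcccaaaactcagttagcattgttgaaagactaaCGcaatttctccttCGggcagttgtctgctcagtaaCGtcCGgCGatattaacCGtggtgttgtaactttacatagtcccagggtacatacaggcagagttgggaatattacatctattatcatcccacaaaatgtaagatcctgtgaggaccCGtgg
The GC content of these stretches was 60% for PCDHGC3, 57.6% for PCDHGC4, 63.2% for PCDHAC1, 62.4% for PCDHAC2 and 40.4% for PCDHB8. The number of CpG dinucleotides was 15, 13, 18, 13 and 7 in the same order. RefSeq promoters of 300 bases were found for 47 of the 53 members. Their median GC content was 39.7%, against 63.0% over the 15345 protein-coding promoters of that table, and the 4 C-type members in the table ranged from 59.0% to 66.0%. The letters CGCT, a core often described in protocadherin promoters and searched on both strands, occurred in 46 of the 47 member promoters (97.9%) and in 81.5% of all promoters. The median number of matches per promoter was 2 in the members and 3 over all promoters. A CTCF core, also searched for, occurred in 1 of the 47 member promoters (2.13%) and in 1.95% of all promoters. Overlap between matches of these motifs was not tested. A match is a description of letters and says nothing of binding.

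The libraries differed widely in how much was called. The number of peaks per library ranged from 4391 to 12844 for H3K4me3, from 7130 to 22644 for H3K4me2 and from 590 to 102183 for H3K27me3. Mapped reads, read from the step of the RPKM values in 48 libraries, had a median of 18.8 M (lowest 5.12 M, highest 47.9 M). The 6 libraries of NALM6 replicate 1 had another scaling and peaks with a median length of 584 to 916 bp, shorter than in the other libraries of the same mark except, for H3K27me3, the treated replicate 3 libraries of NALM6 (380 bp) and Raji (710 bp), so their depth is unknown and their signal is not set beside that of the others. The labelled lineage was visible in the peaks. Of 7 B-lineage markers, 5 in REH, 4 in NALM6 and 7 in Raji had an H3K4me3 start peak in all 6 libraries, and none of the 5 T cell markers had one in any library. Of 4 neuron markers, none had an H3K4me3 start peak in REH or NALM6 and 1 had one in Raji.

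Few members carried a mark at a start. A start peak was counted where a peak touched the 1 kb on either side of any annotated start of a gene. Over all 54 libraries, 33 of the 53 members had no start peak of any mark, and the 20 that had one were 5 alpha, 9 beta and 6 gamma genes. In comparison, 87.1% of all protein-coding genes had a start peak in some library. H3K4me3 was found at 3 members in any of its 18 libraries (62.5% of all genes), H3K4me2 at 4 members (67.3% of all genes) and H3K27me3 at 14 members (78.6% of all genes). The H3K27me3 share of all genes includes untreated Raji replicate 2, which alone had 57.0%. The marks did not share a cluster: no H3K4me3 or H3K4me2 peak fell in the alpha or beta cluster in any library, and no H3K27me3 peak fell in the gamma cluster in any library.

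**Figure D1:**
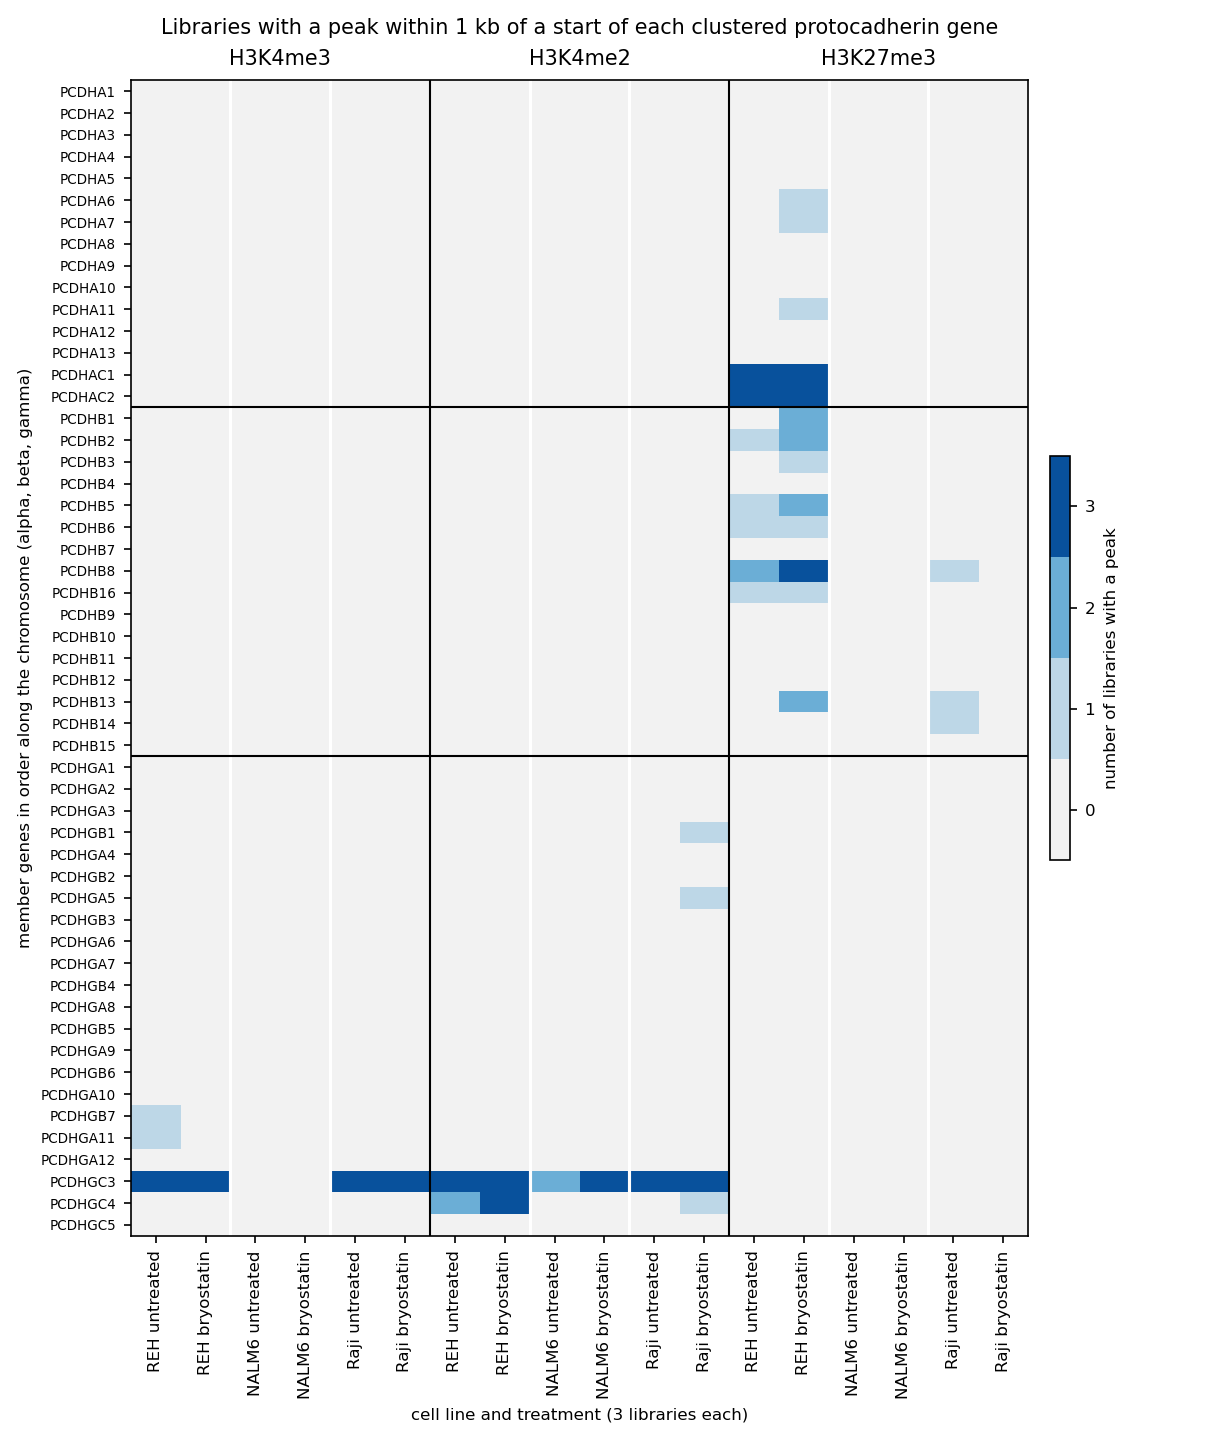
Number of libraries (0 to 3) with a peak within 1 kb of a start, for each of the 53 members (rows, in chromosome order) in each line and treatment (columns), by mark. PCDHGC3 stands out for H3K4me3 and H3K4me2, and PCDHAC1, PCDHAC2 and PCDHB8 for H3K27me3 in REH, while most rows are empty.

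PCDHGC3 (chr5:141475947-141512977), the member with the most regular active marks, carried H3K4me3 in all 6 REH libraries, in all 6 Raji libraries and in none of the 6 NALM6 libraries. A start peak in all 6 libraries was seen for 41.1% of all genes in REH, 49.4% in Raji and 23.2% in NALM6. Start peaks present in all 6 REH and in none of 6 NALM6 libraries were seen for 1.46% of all genes, and those present in all 6 Raji and in none of 6 NALM6 libraries for 2.13%. In untreated REH the mean signal of the H3K4me3 peak over the 5′ start of PCDHGC3 was 360, 396 and 359 RPKM in replicates 1 to 3, and with Bryostatin it was 377, 423 and 388 RPKM. In untreated Raji it was 122, 157 and 169 RPKM, and with Bryostatin 126, 224 and 238 RPKM. In such bulk libraries, fewer cells with the mark and less of it per cell cannot be told apart. Every REH library was above every Raji library, while treated and untreated libraries overlapped within each line. The mean was 372 ± 21.0 RPKM in untreated REH and 149 ± 24.4 RPKM in untreated Raji (SD, n = 3 each).

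In the limma fit, signal was the log2 of the total peak signal in the windows, centred on the median gene of each library. The total of each peak was spread evenly over its length, and only the part inside the windows was counted. On that scale PCDHGC3 was higher in untreated REH than in untreated Raji by 0.84 for H3K4me3 (SE 0.21, adjusted p = 0.0102), and the call covered 30.1% of the 7835 genes tested, 1321 of them higher and 1039 lower in REH. With quantile normalization the difference was 0.11 (adjusted p = 0.714), with the peak maximum instead it was 0.95 (adjusted p = 0.0525), and without REH replicate 1 it was 0.76 (adjusted p = 0.0545). Over all alternatives of this fit the difference ranged from 0.11 to 1.11 and the adjusted p from 0.00137 to 0.714.

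**Figure D2:**
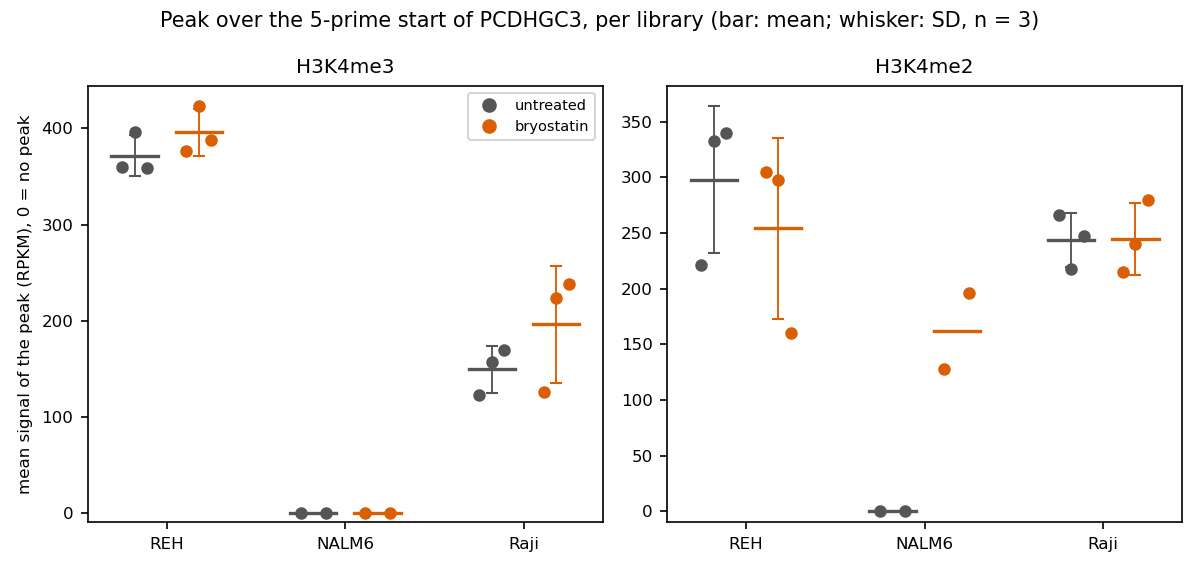
Mean signal in RPKM of the peak over the 5′ start of PCDHGC3 in each library (points; 0 is no peak) for H3K4me3 and H3K4me2, with group means (bars) and SD (whiskers, n = 3). NALM6 replicate 1 is left out because of its scaling, so NALM6 has 2 points a group and no SD. For H3K4me3 the REH libraries lie at 359 to 423 RPKM, the Raji libraries at 122 to 238 RPKM and NALM6 at 0.

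H3K4me2 at PCDHGC3 was found in all 6 REH libraries, all 6 Raji libraries and 5 of 6 NALM6 libraries. For all genes, 48.9% had a start peak in all 6 libraries in REH, 44.2% in Raji and 20.6% in NALM6. Over the 5′ start, the mean signal in untreated REH was 221, 332 and 339 RPKM and with Bryostatin 305, 297 and 160 RPKM. In Raji it was 266, 218 and 247 RPKM untreated and 215, 240 and 279 RPKM with Bryostatin. These groups all overlapped. Each value is an average over the whole length of the peak. The 160 RPKM of treated REH replicate 3 comes from a long peak that also covers the start of PCDHGC4. Its maximum was 915 RPKM, against 1136 and 936 RPKM at the 5′ start in treated REH replicates 1 and 2. REH minus Raji was 0.15 on the centred log2 scale (SE 0.14, adjusted p = 0.445), where 32.8% of 8294 genes were called, and with the peak maximum it was 0.46 (adjusted p = 0.0275). Among the genes with a peak, the total H3K4me2 signal of PCDHGC3 stood between percentile 76.5 and 92.7 in the REH and Raji libraries. For H3K4me3 its total stood between percentile 2.40 and 29.8 in REH and between 7.49 and 21.3 in Raji, and for H3K4me2 between 32.1 and 74.6 in the 5 NALM6 libraries with a peak. The centred values and percentiles sum the windows of all its starts, the internal ones included.

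In NALM6 the H3K4me2 peaks lay mostly at another start. PCDHGC3 has 8 annotated starts spread over 32123 bases, because transcripts also begin near the constant exons. Untreated NALM6 had a peak over the 5′ start in none of 3 libraries, and Bryostatin-treated NALM6 in replicates 2 and 3, at 128 and 196 RPKM. Untreated replicates 2 and 3 and treated replicate 1 counted only through an internal start, and untreated replicate 1 had none. The treated and untreated values overlapped at 0, and treated replicates 2 and 3 also had the most H3K4me2 peaks of the NALM6 libraries (12346 and 12171, against 7130 to 11675 untreated). The part of peak number in this was not tested.

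PCDHGC4, the next C-type gene, had an H3K4me2 start peak in 5 of 6 REH libraries, missing in untreated replicate 3. Its maximum signal was 196 and 554 RPKM in untreated replicates 1 and 2, and 346, 325 and 915 RPKM in the treated libraries. The value of 915 RPKM belongs to a peak of 10720 bp that also covers the start of PCDHGC3. In Raji it had a peak only in treated replicate 2, at 117 RPKM, and in NALM6 none. PCDHGC5 had no start peak of any mark in any library. Other gamma members had H3K4 peaks in a single library each: H3K4me3 at PCDHGB7 (266 RPKM at maximum) and PCDHGA11 (172 RPKM) in untreated REH replicate 1, and H3K4me2 at PCDHGB1 (181 RPKM) and PCDHGA5 (298 RPKM, overlapping its window by 9 bp) in treated Raji replicate 2. The H3K4me3 library of REH replicate 1 had the most H3K4me3 peaks of that line (11822, against 7512 to 10581 in the others).

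Downstream of the C-type promoters the lines differed in which H3K4me2 regions they carried. A region at chr5:141492191-141497820, which overlaps an exon shared by all 22 gamma genes, had a peak in all 6 REH and in 5 of 6 NALM6 libraries but in none of the 6 Raji libraries. There the maximum signal was 1216, 1465 and 1615 RPKM in untreated REH and 612 and 679 RPKM in untreated NALM6 replicates 2 and 3. The region of the last constant exons, chr5:141504321-141517730, had an H3K4me2 peak in all 18 libraries, although that of untreated NALM6 replicate 1 lay wholly beyond the end of the cluster. In REH its peaks were 9920 to 13320 bp long. A further region at chr5:141526981-141531100, beyond the cluster and over an exon of DIAPH1, a formin that nucleates actin filaments, had a peak in all 6 Raji libraries and in no other. Its maximum signal was 638, 552 and 555 RPKM in untreated Raji and 480, 404 and 496 RPKM with Bryostatin. Every treated library was the lower, but no test was made and the share of all regions separated in this way was not counted. Mapped reads of these libraries also differed, at 8.31, 6.70 and 13.9 M untreated and 15.6, 18.8 and 16.1 M with Bryostatin. These regions were found by merging the peaks of all libraries, so the pattern is a description with no test.

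**Figure D3:**
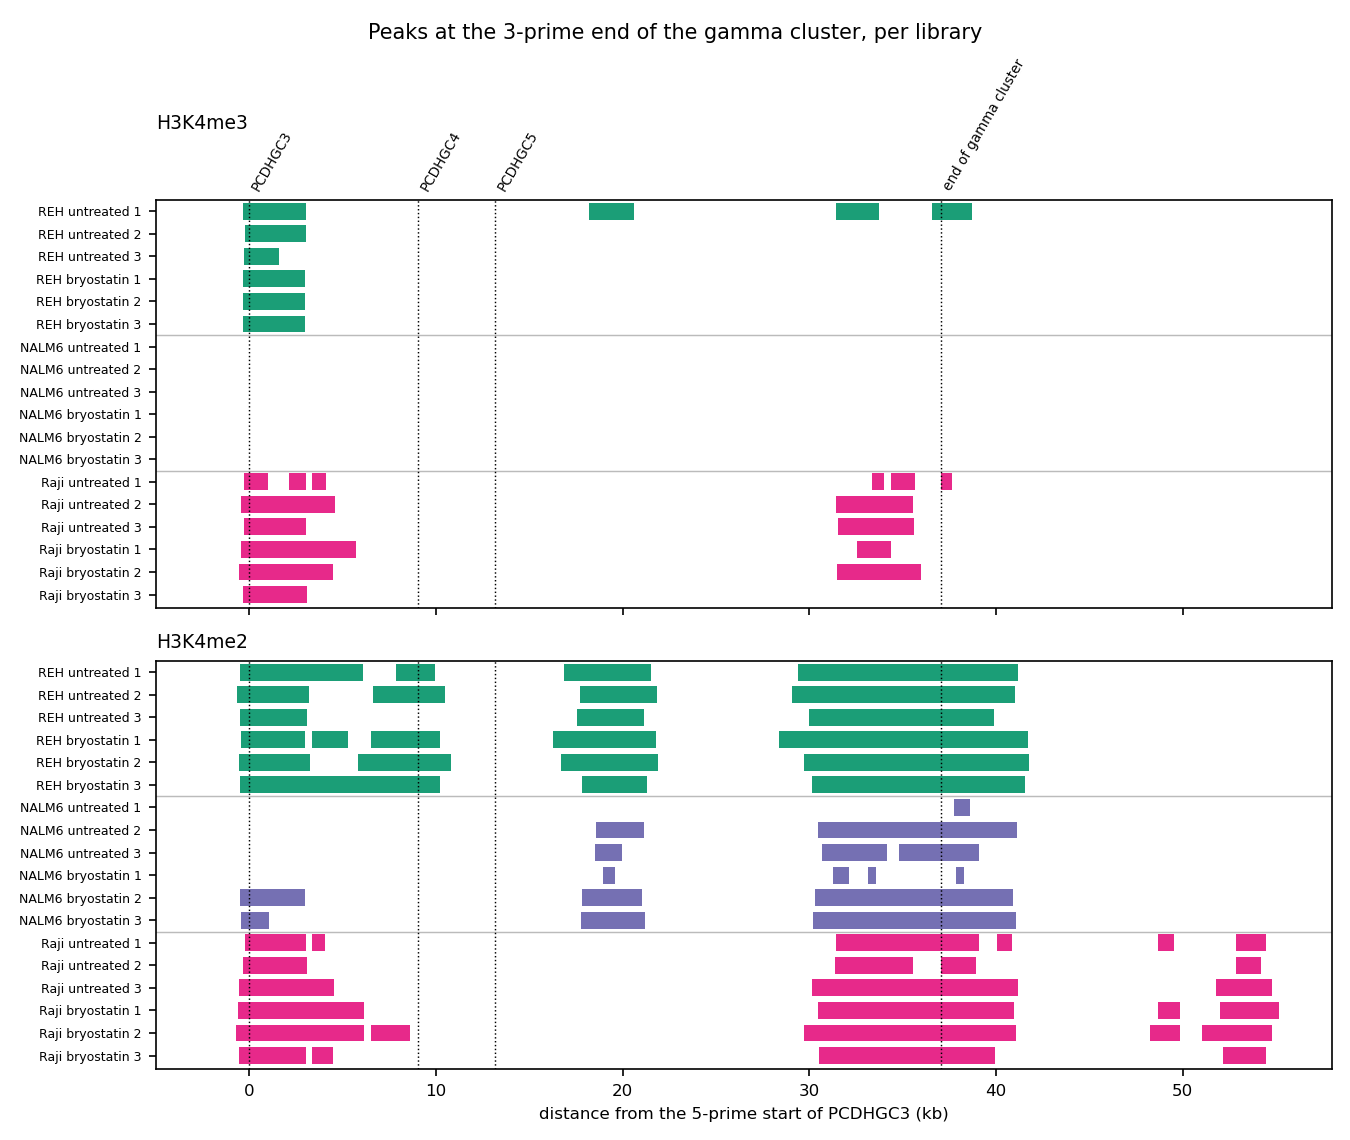
Peaks (bars) of H3K4me3 and H3K4me2 in each library against the distance in kb from the 5′ start of PCDHGC3, with the starts of PCDHGC3, PCDHGC4 and PCDHGC5 and the end of the cluster as dotted lines. NALM6 lacks the H3K4me3 peak at PCDHGC3, Raji lacks the H3K4me2 region between PCDHGC5 and the last exons, and only Raji has the H3K4me2 region beyond the cluster.

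The share of the clusters covered by H3K4me2 was highest in REH. H3K4me2 peaks covered 11.5, 10.9 and 7.82% of the gamma cluster in untreated REH, 0, 5.01 and 3.93% in untreated NALM6 and 5.87, 4.18 and 6.53% in untreated Raji. With Bryostatin the values were 12.8, 11.7 and 11.5% in REH, 1.07, 7.36 and 6.47% in NALM6 and 8.19, 11.4 and 6.16% in Raji. Over the summed length of the 3 clusters and both treatments, REH was covered to 3.32 ± 0.507%, Raji to 2.12 ± 0.752% and NALM6 to 1.19 ± 0.882% (SD, n = 6 each). In an exact two-sided permutation test with line labels permuted within treatment, REH was above Raji by 1.19 points (p = 0.005, adjusted p = 0.009) and above NALM6 by 2.12 points (p = 0.005, adjusted p = 0.009). The value 0.005 is the smallest p this test allows. Raji and NALM6 differed by 0.929 points (exact permutation p = 0.055, adjusted p = 0.0707). Over the whole genome, H3K4me2 peaks of untreated libraries spanned 56.0, 44.8 and 36.2 Mb in REH and 28.4, 19.6 and 45.6 Mb in Raji. In untreated NALM6 they spanned 6.16, 34.1 and 26.1 Mb. Treated libraries spanned 59.9, 47.8 and 40.1 Mb in REH and 61.7, 71.8 and 32.4 Mb in Raji. In treated NALM6 they spanned 5.99, 43.5 and 44.5 Mb. The part of called length in the cover was not tested.

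H3K4me3 peaks covered 5.95, 1.79 and 1.01% of the gamma cluster in untreated REH and 1.83, 1.82 and 1.82% with Bryostatin. In Raji they covered 2.65, 5.05 and 4.03% untreated and 4.37, 5.21 and 1.87% with Bryostatin. Untreated REH replicate 1 thus lay above the other REH libraries, and the Raji treatments overlapped. Over the 3 clusters the covered share was 0 in all 6 NALM6 libraries, 0.713 ± 0.536% in REH and 1.16 ± 0.402% in Raji (SD, n = 6 each). REH and Raji were each above NALM6 (exact permutation p = 0.005, adjusted p = 0.009 for both). REH minus Raji was -0.449 points (exact permutation p = 0.14, adjusted p = 0.158), and without untreated REH replicate 1 it was -0.664 points (exact permutation p = 0.025, adjusted p = 0.0321). The counts of members with an H3K4me3 start peak, 1.33 ± 0.816 in REH, 1.00 ± 0 in Raji and 0 in NALM6, gave adjusted p = 0.015 for both lines against NALM6 by the same exact permutation test. For H3K4me2 the counts were 1.83 ± 0.408 in REH, 1.50 ± 1.22 in Raji and 0.833 ± 0.408 in NALM6, with adjusted p = 0.027 for REH against NALM6 (exact permutation).

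Without the NALM6 libraries of replicate 1, REH was above NALM6 by 0.713 points of H3K4me3 cover (exact permutation, adjusted p = 0.06) and by 0.833 members with H3K4me2 (exact permutation, adjusted p = 0.108).

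How many peaks a library held moved with these differences. When each library kept only as many of its strongest peaks as the poorest library compared, the difference in H3K4me3 start peaks fell to 0.667 for REH against NALM6 (exact permutation, adjusted p = 0.09) and to 0 for Raji against NALM6. The H3K4me3 cover then differed by 0.364 points (exact permutation, adjusted p = 0.0707) and 0, and with the upper 0.5 of each library's peaks both cover differences were 0. When the number was equalized only among libraries with at least as many peaks as the poorest REH library (7512), which kept 4 NALM6 libraries, both start peak differences were 1.00 (exact permutation, adjusted p = 0.027). Under the same pair of changes the H3K4me2 start peak difference between REH and NALM6 was 0.167 (exact permutation, adjusted p = 1), with 3 NALM6 libraries kept. The H3K4me2 cover differences were then smaller but still past the threshold. REH was above Raji by 0.896 points (exact permutation, adjusted p = 0.015) and above NALM6 by 1.16 points (exact permutation, adjusted p = 0.0375).

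**Figure D4:**
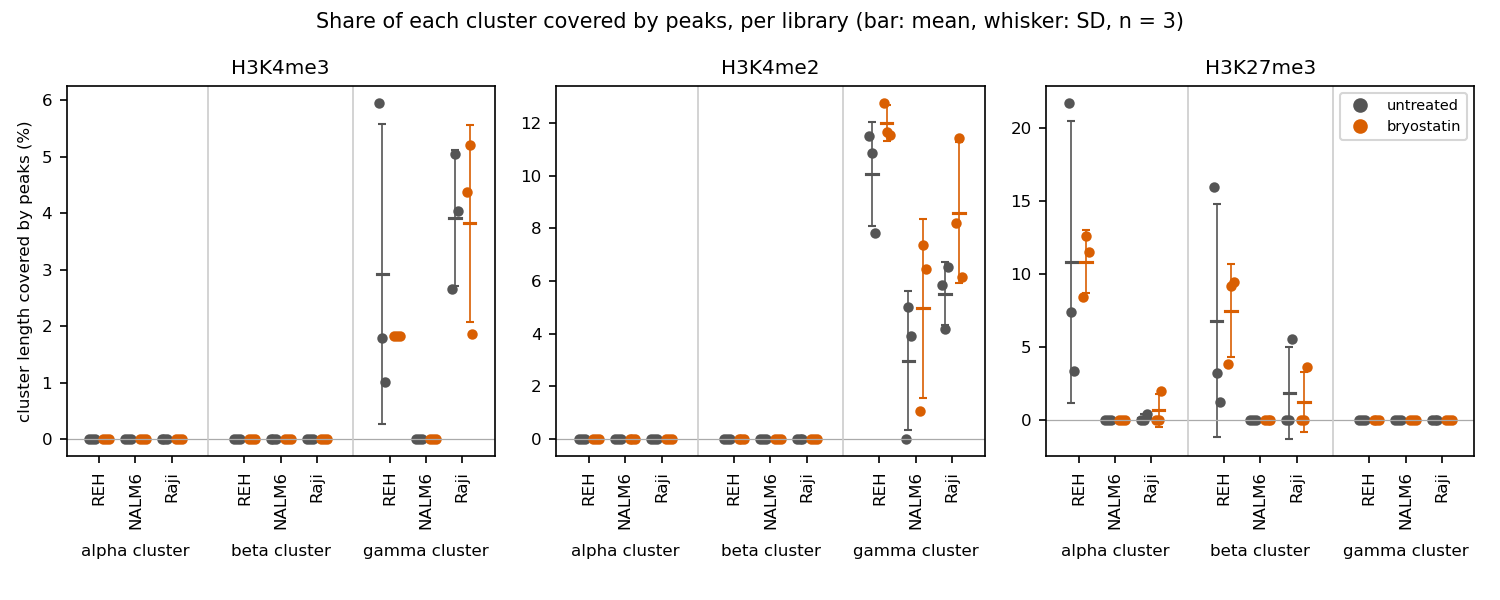
Share of the length of each cluster covered by peaks (%), per library (points), with the mean (bar) and SD (whisker, n = 3) of each line and treatment, by mark. H3K4me3 and H3K4me2 appear only over the gamma cluster, H3K27me3 only over the alpha and beta clusters and at its highest in REH.

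H3K27me3 was found over the alpha and beta clusters, mostly in REH. In REH 13 members had a start peak in some library (24.5% of members, against 19.8% of all genes) and 2 members, PCDHAC1 and PCDHAC2, had one in all 6 (against 9.27% of all genes). In all 6 libraries of NALM6 and of Raji, H3K27me3 was found at 0.669% and 1.24% of all genes, no member among them. None of the 53 had one in any NALM6 library, where 28.2% of all genes did, and 3 had one in Raji, all in untreated replicate 3, where 70.8% of all genes had one in some library. PCDHAC1 and PCDHAC2 were thus present in all 6 REH libraries and in no library of NALM6 or Raji, as were 2.71% and 1.13% of all genes. Untreated Raji replicate 2 alone had an H3K27me3 start peak at 57.0% of all genes, from 24257 peaks, against 10.7 to 18.7% in the REH libraries. All 7 B-lineage markers had an H3K27me3 start peak in some Raji library. That library enters the Raji shares above, which are therefore a loose yardstick for the members. Why it differed was not tested.

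At PCDHAC1 (chr5:140926299-141012347) the maximum H3K27me3 signal was 105, 95.5 and 145 RPKM in untreated REH and 89.2, 85.9 and 67.8 RPKM with Bryostatin. The peak lies over its first exon and in some libraries only touches the window, with 29 to 1589 bp of overlap at the 5′ start. At PCDHAC2 (chr5:140966470-141012347) the maximum over any of its starts was 134, 95.5 and 105 RPKM untreated and 152, 119 and 160 RPKM with Bryostatin. Treated and untreated maxima overlapped at PCDHAC2. At PCDHAC1 every treated library had the lower maximum, while its total signal in the windows overlapped between treatments. The share of all genes with maxima separated in this way was not counted, and 3 libraries against 3 cannot give an exact two-sided p under 0.1. The centred total signal changed by -0.49 for PCDHAC1 (SE 1.41, limma adjusted p = 0.929) and by 0.37 for PCDHAC2 (SE 0.55, limma adjusted p = 0.874).

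Of the beta genes, PCDHB8 (chr5:141177790-141180539) had the most regular H3K27me3, in 5 of 6 REH libraries and in untreated Raji replicate 3. Its maximum was 110 and 105 RPKM in untreated REH replicates 1 and 2, none in replicate 3, 116, 102 and 151 RPKM with Bryostatin, and 58.6 RPKM in the Raji library. In untreated REH replicate 3 a peak lay further along the gene, outside the window. PCDHB2 and PCDHB5 followed, each in untreated replicate 1 and treated replicates 2 and 3 of REH. The maxima were 87.3, 123 and 74.0 RPKM for PCDHB2, where the treated libraries counted only through an internal start, and 56.5, 98.1 and 55.5 RPKM for PCDHB5. In Raji PCDHB14 reached 43.2 RPKM and PCDHB13 reached 55.5 RPKM in the same single library. The remaining members with a peak in REH, PCDHA6, PCDHA7, PCDHA11, PCDHB1, PCDHB3, PCDHB6, PCDHB13 and PCDHB16, had it in 1 or 2 libraries, with maxima of 52.4 to 85.9 RPKM.

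Several H3K27me3 regions of REH lay away from member starts. A region at chr5:141087101-141090920, between PCDHB1 and PCDHB2 and over an exon of the gene ENSG00000289752, had a peak in all 6 REH libraries and reached 159, 209 and 283 RPKM untreated and 259, 221 and 240 RPKM with Bryostatin. These maxima were above those at PCDHAC1, PCDHAC2 and PCDHB8 in every library. A region at chr5:141000461-141013480, over exons shared by all 15 alpha genes, also had a peak in all 6 REH libraries, and in Raji only in treated replicate 3.

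**Figure D5:**
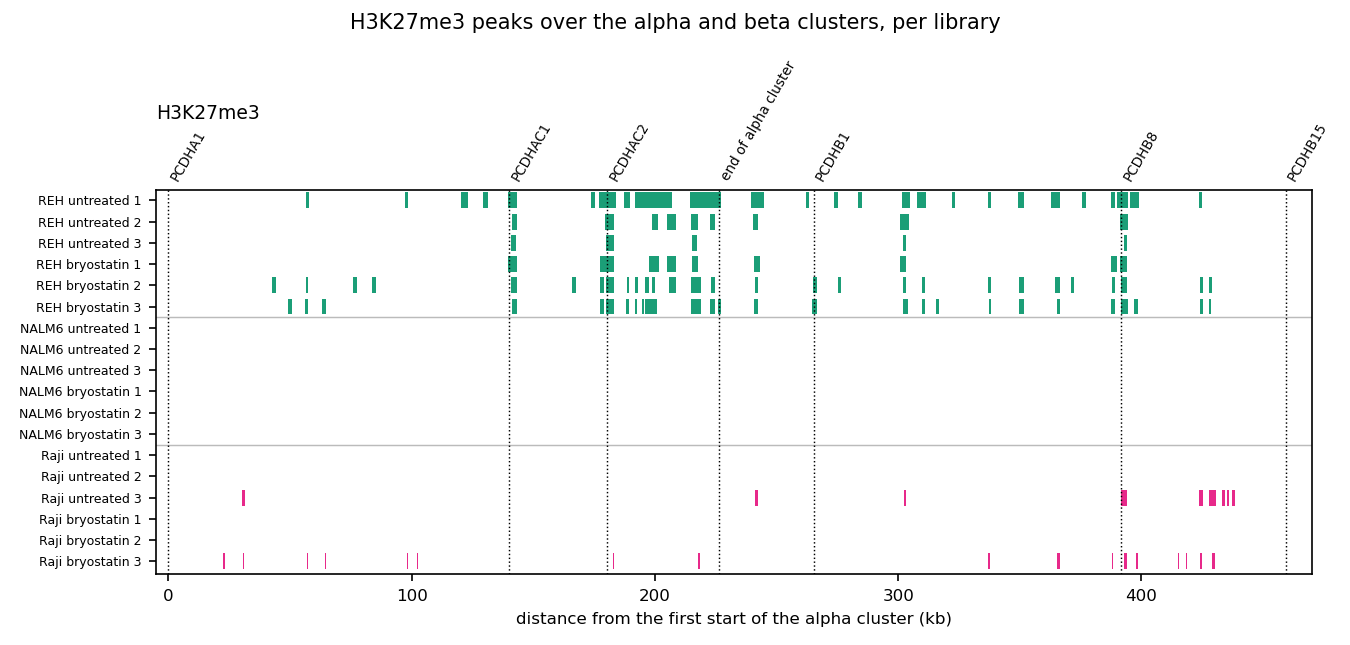
H3K27me3 peaks (bars) over the alpha and beta clusters in each library, against the distance in kb from the first start of the alpha cluster, with starts of named members as dotted lines. The 6 REH libraries share peaks at PCDHAC1, PCDHAC2 and near PCDHB8, no NALM6 library has a peak, and Raji has peaks only in the 2 libraries of replicate 3.

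The number of members with H3K27me3 in REH was 7, 3 and 2 untreated and 3, 10 and 10 with Bryostatin, while those libraries held 48864, 19024, 17750, 17295, 43591 and 46854 peaks in the same order. The libraries with more peaks had more members, in both treatments. The means of 7.67 ± 4.04 and 4 ± 2.65 members (SD, n = 3 each) did not differ beyond their spread (exact permutation p = 0.3, adjusted p = 1), and with equal numbers of peaks the difference was -0.333 members. The covered length was 6.49 ± 1.84% with Bryostatin and 6.26 ± 6.22% without (SD, n = 3 each, exact permutation p = 0.9, adjusted p = 1). In untreated REH the alpha cluster was covered to 21.8, 7.40 and 3.34% and the beta cluster to 16.0, 3.21 and 1.2%, so replicate 1 stood apart. With Bryostatin the alpha cluster was covered to 8.40, 12.6 and 11.5% and the beta cluster to 3.79, 9.21 and 9.46%. The 2 Raji libraries of replicate 3 covered the alpha cluster to 0.389 and 1.96% and the beta cluster to 5.51 and 3.61%, untreated first. As a share of the 53 members, start peaks stood at 13.2, 5.66 and 3.77% in untreated REH, below the 18.7, 12.7 and 10.7% of all genes in the same libraries. With Bryostatin the members stood at 5.66, 18.9 and 18.9% and all genes at 11.3, 15.3 and 17.1%, so treated replicates 2 and 3 were the libraries in which the members exceeded all genes.

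Across lines, REH had 5.83 ± 3.66 members with H3K27me3, Raji 0.500 ± 1.22 and NALM6 0 (SD, n = 6 each; exact permutation, adjusted p = 0.027 against Raji and 0.015 against NALM6). Covered length was 6.37 ± 4.11% in REH, 0.641 ± 0.994% in Raji and 0 in NALM6 (SD, n = 6 each; exact permutation, adjusted p = 0.015 and 0.009). Leaving out any Raji library but untreated replicate 3 gave a difference of 5.23 members (exact permutation, adjusted p = 0.054). Without both Raji libraries of replicate 3, the difference from Raji was 5.83 members (exact permutation, adjusted p = 0.054). Among libraries with at least as many peaks as the poorest REH library (17295), 3 of NALM6 and 3 of Raji, and with equal numbers of peaks, REH was above each by 2.83 members (exact permutation, adjusted p = 0.045). Under that setting the covered length was above each by 3.82 points and did not pass (exact permutation, adjusted p = 0.0707). It equalizes peak number only. Mapped reads of the libraries kept were 15.2 to 38.9 M in REH, 19.1, 28.6 and 6.86 M in NALM6 and 22.9, 32.4 and 14.5 M in Raji. The NALM6 library of 6.86 M had peaks of 380 bp at the median. Untreated Raji replicate 2, also kept, had start peaks at 57.0% of all genes. With all libraries brought to the poorest, 590 or 851 peaks, no member had a peak in any line. Without NALM6 replicate 1 the difference from NALM6 was 5.83 members (exact permutation, adjusted p = 0.054). NALM6 had no member with a start peak in libraries of 21351, 35101 and 78872 peaks, which spanned 71.9, 158 and 39.8 Mb. Treated Raji replicate 3 had none in 102183 peaks spanning 95.4 Mb, though it had peaks elsewhere in the alpha and beta clusters. The H3K27me3 peaks of the REH libraries spanned 45.7 to 232 Mb.

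Bryostatin changed none of the members that could be fitted past the test, which were PCDHGC3 in REH and Raji and PCDHAC1 and PCDHAC2 in REH. For PCDHGC3 the centred log2 change was 0.02 in REH (SE 0.14, limma adjusted p = 0.994) and 0.14 in Raji (SE 0.30, limma adjusted p = 1.00) for H3K4me3. For H3K4me2 it was -0.09 in REH (SE 0.14, limma adjusted p = 0.941) and 0.12 in Raji (SE 0.16, limma adjusted p = 0.854). The fits called 0.0607% of 8235 genes in REH for H3K4me3, 0.0817% of 9792 genes for H3K4me2 and none in Raji or for H3K27me3. At an unadjusted limma p under 0.05 the fits had 330 of 9894 genes in Raji for H3K4me3, 702 of 8848 for H3K4me2 and 100 of 1858 in REH for H3K27me3. A share of 0.05 is reached at that cut with no change at all. The difference between the responses of Raji and REH was 0.13 (SE 0.36, limma adjusted p = 0.999) for H3K4me3 and 0.22 (SE 0.21, limma adjusted p = 0.867) for H3K4me2. No member had a peak of any mark in all 6 libraries of NALM6, or of H3K27me3 in Raji, so none could be fitted there. An H3K4me2 start peak in all 3 treated and no untreated library was found for 0.0399% of all genes in REH, 0.389% in NALM6 and 0.0399% in Raji, and no member was among them.

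Among the 9 start peak counts and 9 covered lengths tested for Bryostatin, treated and untreated libraries did not overlap for the H3K4me2 cover of REH, at 3.61 ± 0.203% with Bryostatin and 3.03 ± 0.591% without (SD, n = 3 each). Its exact permutation p was 0.1, the smallest that 3 libraries against 3 allow, and the adjusted p over the 9 line and mark combinations was 0.9. All 9 adjusted p-values for covered length were at least 0.9, and those for start peaks were 1. In NALM6 the H3K4me2 cover of the 3 clusters was 0, 1.51 and 1.18% untreated and 0.321, 2.21 and 1.94% with Bryostatin. It was higher in 3 of 3 same-numbered pairs. Same-numbered H3K4me2 libraries of NALM6 deviated together (correlation 0.309 to 0.443). Replicates 2 and 3 also did so across numbers (0.277 and 0.417), while replicate 1 went against both, so this does not show pairing by number. The difference of 0.597 points had p = 0.5 without pairing and p = 0.25 with the replicate block, both by exact permutation, and 0.25 is the smallest that 3 pairs allow (adjusted p = 1 and 0.75).

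Genes around and related to the clusters were counted for comparison. Of 19 neighbours of the clusters, 9 in REH, 6 in NALM6 and 13 in Raji had an H3K4me3 start peak in all 6 libraries. In 4 or more libraries it was 11, 9 and 13. Of all genes, 41.1% in REH, 23.2% in NALM6 and 49.4% in Raji had such a peak in all 6. TAF7, a subunit of the general transcription factor TFIID that lies between the beta and gamma clusters, had it in all 6 Raji libraries. HDAC3, a histone deacetylase beyond the gamma cluster, had it in all 6 libraries of each line. Of 12 protocadherins outside the clusters, 1 in REH, 1 in NALM6 and 2 in Raji had an H3K4me3 start peak in all 6 libraries. PCDH9, an adhesion protein of the same family, had it in every library of each line, and PCDH12 in all 6 Raji libraries. PCDH1, also a neighbour of the gamma cluster, was the non-clustered gene with H3K27me3 in all 6 libraries of REH and of Raji. Of 19 genes for regulators of the clusters, such as cohesin, CTCF and Polycomb subunits, 18 in REH, 10 in NALM6 and 19 in Raji had H3K4me3 in all 6 libraries, and 0, 0 and 1 had H3K27me3. In NALM6, 18 of the 19 had H3K4me3 in 4 or more libraries, and each had it in some library.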

How the data were processed

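Cut&Tag was done on fresh cells of each line, and the authors sequenced the libraries in pairs, trimmed the reads with Trim Galore, aligned them to hg38 with Bowtie2, scaled coverage to RPKM and called peaks in each library separately with SEACR (versions are not given in the sources used here). The deposited peak lists hold, for each peak, the total and maximum signal, and no per-gene count. The submitters' processing notes also name bcl2fastq and DESeq2; DESeq2 needs reads and was not run here. The samples were labelled H3K27me3, while the series text writes H3K27me2 in places.

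From the peaks, genes with a peak within 1 kb of a start in GENCODE release 44, the covered length of each cluster and the peak signal were computed. Between lines, exact two-sided permutation tests were used (line labels permuted within treatment, 6 libraries against 6; treatments 3 against 3), adjusted by Benjamini-Hochberg over 9 tests. Signal was tested with limma 3.58.1 in R 4.3.3 (eBayes with trend) over all genes with a peak in every library, adjusted over all genes tested at 0.05. The scripts were checked on simulated data. Members, gene lists and named members were chosen with earlier results of these data known. Named members were the 5 C-type genes, the 2 of each family with start peaks in most libraries per line and mark, those called by limma, and those in all 6 libraries of a line and none of another; further members were named after their values were seen. Replicate numbers come from the labels and are not stated to mark separate cultures, so p-values measure the spread between these libraries, which may be technical. Same-numbered libraries deviated together (correlation over 0.1 in every pair) in 5 of 18 comparisons, among them 4 of the 9 Bryostatin ones. In the NALM6 Bryostatin comparisons, replicates 2 and 3 also correlated across numbers (0.210 to 0.582), so these do not show pairing by number. Alternatives covered the window, overlap, peak number, scaling, pairing and leaving out libraries.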

Additional observations from a re-analysis of the deposited data

How the results depend on the processing

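Of 1068 alternative values, 968 were counted as unchanged. For tested differences this meant the same direction and side of the threshold, or a move to or from 0 within the spread. For numbers of members called it meant an equal or close count, and for promoter composition a close value. Values of 0 in both settings also counted, so this total overstates how stable the differences were. REH minus Raji in H3K27me3 start peaks was unchanged in 11 of 22. The causes of the other changes were not tested. The limits are the number of peaks per library, the scaling of NALM6 replicate 1 and 3 libraries a group. In the lists below, differences follow the order REH minus NALM6 and Raji minus NALM6 for H3K4me3, REH minus NALM6 for H3K4me2, then REH minus Raji and REH minus NALM6 for H3K27me3.

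Start peaks with equal numbers of peaks differed by 0.667, 0, 0.333, 0 and 0, with the upper 0.5 of peaks by 0, 0, 0.333, 1.50 and 1.50, and with untreated libraries only, where 3 against 3 cannot pass, by 1.67, 1, 1, 3 and 4, none past the threshold. With the replicate block (exact permutation), 56 of 62 results were unchanged, and these differences of 1.33, 1, 1, 5.33 and 5.83 had adjusted p = 0.0563, 0.0563, 0.113, 0.113 and 0.0563; REH minus Raji in H3K27me3 cover, 5.73, had 0.0804. A 2 kb window gave REH minus Raji 6.33 for H3K27me3 (not past) and -0.50 for H3K4me2, and a Bryostatin change of 2 in Raji H3K27me3. With the 5′ end only, Raji minus NALM6 in H3K4me2 passed at 1.17. The Bryostatin change in REH H3K27me3 was -0.333 with equal numbers of peaks.

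Covered length with equal numbers of peaks differed by 0.364 and 0 points for H3K4me3 and 0 and 0 for H3K27me3, and with the upper 0.5 of peaks by 0 and 0 for H3K4me3; Raji minus NALM6 in H3K4me2 passed at 0.957 and 1.01. With untreated libraries only, values were 0.878 and 1.18 (H3K4me3), 1.36 and 2.13 (H3K4me2, REH minus Raji and NALM6) and 5.61 and 6.26 (H3K27me3). With equal numbers of peaks among libraries with as many as the poorest REH library, chosen after seeing the data, H3K4me2 start peaks differed by 0.167 and H3K27me3 cover by 3.82 from Raji and from NALM6, none past the threshold. Bryostatin changes with equal numbers of peaks were 0.0824 (REH H3K4me3), 0.270 (Raji H3K4me3) and -1.26 (REH H3K27me3), with the upper 0.5 of peaks -1.63 (REH H3K27me3) and 0.0945 (Raji H3K27me3), and with clusters widened by 10 kb -0.0548 (NALM6 H3K4me3).

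Leaving out 1 library, or NALM6 replicate 1 in both treatments, gave start peak differences of 0.233 to 0.833 (REH minus Raji, H3K4me2, past the threshold without treated Raji replicate 2), 0.833 to 1.17, 4.50 to 6.10 and 5.00 to 6.60 (the last 3 of the order). Cover ranged from -0.664 to -0.367 (REH minus Raji, H3K4me3), 0.497 to 0.794 (REH minus NALM6, H3K4me3) and 0.412 to 1.13 (Raji minus NALM6, H3K4me2, past the threshold without untreated Raji replicate 2 or treated NALM6 replicate 2). Bryostatin changes in cover ranged from -0.617 to 0.126 (REH H3K4me3), -0.238 to 0.265 (Raji H3K4me3), -2.08 to 3.76 (REH H3K27me3) and -0.647 to 0.636 (Raji H3K27me3).

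Members called by limma between REH and Raji in H3K4me3 fell from 1 to 0 with the peak maximum, quantile normalization or without untreated REH replicate 1 (range 0 to 1), and in H3K4me2 were 1 with the peak maximum. Against NALM6 they were 1 for H3K4me3 with a peak in at least 3 libraries and a pseudocount of 0.1, and 1 for H3K4me2 without NALM6 replicate 1. The Bryostatin change of PCDHGC3 was -0.00239 with quantile normalization in REH H3K4me3 (-0.0415 to 0.0933 when leaving out libraries), -0.163 to 0.464 in Raji H3K4me3, 0.0919 over merged regions in REH H3K4me2 (-0.205 to 0.0245), and -0.205 with the peak maximum and -0.0256 in 2 kb windows in Raji H3K4me2. The line difference in response was -0.183 to 0.457 for H3K4me3 and -0.0976 with the peak maximum for H3K4me2. PCDHAC1 ranged from -1.57 to 0.60 and PCDHAC2 from -0.164 to 1.01. In windows of 1 kb each side, 100% of members and 97.3% of all genes held CGCT, with a median of 9 and 12 matches. A CTCF core was held there by 5 of the 53 members (9.43%), of which 4 were alpha genes, and by 6.27% of all genes.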
